A study of Mus musculus with 12 samples.

Results

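Of the 38283 genes in the deposited table, 10 are described here: *Bsx*, *Tbx3*, *Isl1*, *Nkx2-1*, *Otp*, *Foxo1*, *Nhlh2*, *Dlx1*, *Nr5a1* and *Fezf1*, transcription factors that specify or maintain neurons of the arcuate nucleus (ARC) and the adjoining ventromedial nucleus of the hypothalamus. They were picked by gene symbol, and each symbol had a single entry. RNA was taken from the ARC of freely fed male C57BL/6 mice aged 8 weeks, cut by laser capture from frozen brain sections, amplified and sequenced. WT mice (n = 5) were compared with mice homozygous (Homo, n = 7) for the R299Q mutation in *Prkag2*, the gene of the γ2 subunit of the energy sensor AMPK. The mutation was knocked in at the gene itself and is not restricted to a cell type, so levels in the ARC cannot be assigned to γ2 acting within any 1 kind of neuron. Values are in FPKM, the fragments on a gene divided by its length and by the fragments of the library, which allows levels to be set beside each other between genes.

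ARC neurons of different peptide content arise from a common progenitor field, and transcription factors that stay on after birth keep each identity in place. *Nkx2-1* marks the ventral hypothalamus from which the ARC and ventromedial nucleus form, *Otp*, *Dlx1*, *Bsx*, *Tbx3* and *Isl1* act in the branching and upkeep of AGRP, POMC and growth hormone-releasing hormone neurons, and *Foxo1* passes insulin and leptin signals to *Agrp* and *Pomc*. *Nr5a1*, which encodes SF1, and *Fezf1* define the ventromedial nucleus, whereas *Nhlh2* acts in melanocortin neurons and on the prohormone convertase gene *Pcsk1*. The comparison asked whether these factors differed between WT and R299Q γ2 mice, whose AGRP neurons and neuropeptides were the subject of the study.

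The libraries fell into 2 sets at the widest gap in the number of genes above 0. WT 1, WT 2 and Homo 1 to Homo 5 had between 15742 and 16467 such genes, and are called the sparser set; WT 3 to WT 5 with Homo 6 and Homo 7 had between 18141 and 18635 and are called the fuller set. The labels name no batch, and genotypes are therefore also compared within each set. The 9 ARC marker genes, *Agrp*, *Npy* and *Pomc* among them, were all above 0 in every library and summed to between 1285 and 4516 FPKM in WT and between 3416 and 5168 FPKM in Homo, with the lowest sums in WT 3 (1285 FPKM) and WT 4 (2362 FPKM). Each of the 9 was higher in Homo by its fitted value, with a median log2 difference of 0.44 and 3 at an unadjusted limma p under 0.05 (3.05% of all genes were higher at that p). *Tac2*, at 0.02, was at -0.05 after quantile normalization. With the library set as a term 1 of the 9, *Slc6a3*, had such a p, and *Agrp* moved from 0.60 to 0.30, *Kiss1* from 0.40 to 0.11 and *Tac2* to -0.13. The 5 microglial markers were above 0 in every library and summed to between 45.4 and 76.8 FPKM in WT and between 63.9 and 115 FPKM in Homo, with 2 higher at an unadjusted p under 0.05, also with the set as a term. The 5 oligodendrocyte markers, all higher in Homo by fitted value and 0 at an unadjusted p under 0.05, summed to between 64.5 and 508 FPKM in WT and between 121 and 363 FPKM in Homo. The 4 endothelial markers were all higher, with 0 at that p. Of the 5 astrocyte markers 3 were higher and 2 lower, with 0 at that p. Of 6 tanycyte and ependymal markers 5 were tested, 2 higher and 3 lower. Of these *Crym* was lower at an unadjusted limma p under 0.05, as were 2.5% of all genes. The 8 pituitary markers, 4 of them with a mean of at least 1 FPKM, summed to 119 FPKM in WT 3, 71.0 in WT 5 and 58.9 in Homo 7, while the remaining 9 libraries ranged from 1.86 to 16.1 FPKM. WT 3 was thus lowest in ARC and highest in pituitary markers. The part of these cells in the levels described was not tested. *Prkag2* itself had a mean of 14.7 FPKM and a log2 fold change of 0.03 (limma adjusted p = 0.993), and as the mutation changes 1 amino acid its level is no check of genotype.

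The factors of the ARC were present in every library and those of the ventromedial nucleus were close to 0. Ordered by mean over the 12 libraries, *Tbx3* stood at 63.3 FPKM, *Isl1* at 39.7, *Bsx* at 23.3, *Otp* at 15.3, *Nkx2-1* at 12.2, *Dlx1* at 10.8, *Foxo1* at 9.71 and *Nhlh2* at 1.90 FPKM. *Fezf1* at 0.194 and *Nr5a1* at 0.0709 FPKM came last. The steps from *Isl1* to *Bsx*, from *Foxo1* to *Nhlh2* and from *Nhlh2* to *Fezf1* held in all 12 libraries. Between the other neighbours the order turned in some libraries. *Tbx3* exceeded *Isl1* in 9 libraries, *Bsx* exceeded *Otp* in 9, *Otp* exceeded *Nkx2-1* in 9, *Nkx2-1* exceeded *Dlx1* in 8 and *Dlx1* exceeded *Foxo1* in 8, so these pairs were not separated beyond their spread. *Tbx3* lay above 92.4% of the 14017 genes with a mean of at least 1 FPKM, and *Nhlh2* above 13.1% of them. The spread between libraries was very unequal: the SD of log2(FPKM + 1) exceeded that of 78.1% of tested genes for *Tbx3* but only of 6.42% for *Foxo1* and 4.43% for *Nhlh2*. At the low level of *Nhlh2* the added 1 narrows the log scale, so its rank does not show that it was steady. Its coefficient of variation in FPKM was 25.96%, above that of *Foxo1* but below those of the other tested factors, of which *Otp* had the lowest at 33.1%.

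**Figure D1:**
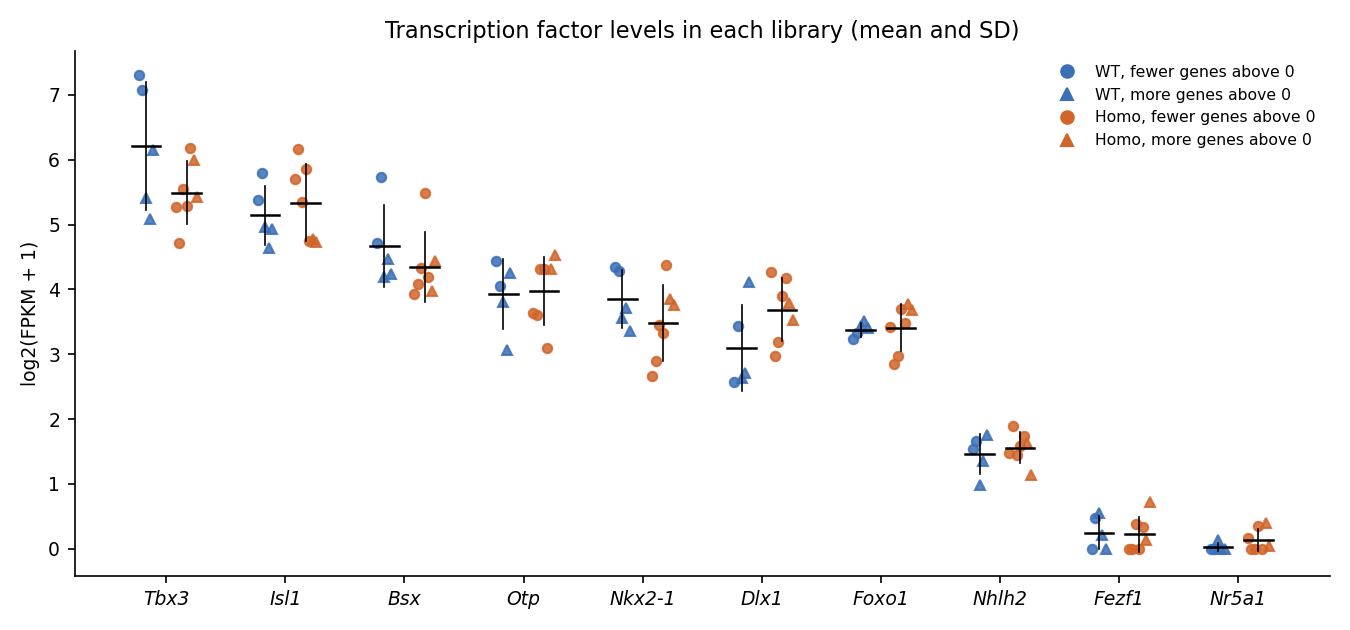
Levels of the 10 transcription factors as log2(FPKM + 1), 1 point per library (5 WT in blue, 7 Homo in orange), with circles for the 7 libraries of the sparser set and triangles for the 5 of the fuller set; bars give the mean and SD of each genotype. WT and Homo points overlap for every factor, *Tbx3* has its 2 highest points in WT, and *Fezf1* and *Nr5a1* sit at or near 0.

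None of the 8 factors with a mean of at least 1 FPKM passed a test for a difference between Homo and WT. With limma and Benjamini-Hochberg adjustment over 14017 genes, 0 of 8 had an adjusted p under 0.05 (0.00713% of all genes did, a single gene, *Jarid2*, named because it was the only one), 0 of 8 had an unadjusted p under 0.05 (5.55% of all genes, 3.05% higher and 2.5% lower in Homo), and the smallest adjusted p among them was 0.903. By exact permutation of the genotype labels, two-sided, 0 of the 10 factors had a p under 0.05. In 5 of the 8 the fitted value was higher in Homo and in 3 lower, with a median log2 fold change of 0.04 against -0.01 over all genes tested. Genotypes overlapped for each of the 8, where 0.221% of all genes showed no overlap. Fewer cells of a type and less RNA per cell cannot be told apart in such tissue samples. Fold changes are on the log2(FPKM + 1) scale, which understates changes at low levels.

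*Tbx3* (ENSMUSG00000018604), a T-box repressor that keeps AGRP and POMC neurons in their mature state, had the lowest fitted value in Homo relative to WT. On GRCm38 the gene spans bases 119670669 to 119684724 of chromosome 5, plus strand. Its level in WT 1 to WT 5 was 158, 134, 41.6, 33.0 and 70.3 FPKM. In Homo 1 to Homo 7 it was 37.6, 25.3, 45.7, 38.2, 71.3, 63.0 and 41.9 FPKM. WT 1 and WT 2 stood far above all other libraries, and the other 3 WT libraries lay among the Homo ones. WT had a mean of 87.4 ± 55.9 FPKM (SD, n = 5) and Homo of 46.1 ± 15.8 FPKM (SD, n = 7), a log2 fold change of -0.72 (95% interval from -1.52 to 0.08, limma adjusted p = 0.903; exact permutation p = 0.140). WT 1 and WT 2 are the WT libraries of the sparser set. Within that set the log2 difference, Homo minus WT, was -1.79, with a limma adjusted p of 0.418. *Tbx3* was the only 1 of the 8 factors with an unadjusted p under 0.05 there, where 5.98% of all genes had one and 0.0428% had an adjusted p under 0.05. In the fuller set it was 0.16. For this contrast between the sets *Tbx3* had an unadjusted limma p of 0.00392 and an adjusted p of 0.848, where 5.18% of all genes had an unadjusted and 0.0428% an adjusted p under 0.05. With the set as a term the fold change of *Tbx3* was -0.90 (unadjusted limma p = 0.0319, adjusted p = 0.978; exact permutation within sets, p = 0.0571), where 4.78% of all genes had an unadjusted p under 0.05. Without WT 1 and WT 2, an alternative chosen after their values were seen, it was -0.06. In GENCODE the antisense gene *Tbx3os1* shares 115 exon bases with *Tbx3*, and the counting of strands is not stated. Listed in the table as *Gm2301*, it varied from 0 in 4 Homo libraries to 10.3 FPKM in WT 1 and Homo 5.

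*Nkx2-1* (ENSMUSG00000001496), the homeobox gene of the ventral forebrain that is also active in adult POMC and AGRP neurons, also had differences of opposite sign in the library sets. The gene covers bases 56531958 to 56536908 of chromosome 12, minus strand. In WT 1 to WT 5 it was measured at 19.3, 18.6, 10.7, 12.2 and 9.27 FPKM. Homo 1 to Homo 7 gave 5.33, 6.45, 9.96, 9.02, 19.8, 13.5 and 12.5 FPKM. WT 1 and WT 2 were again the highest of their genotype, but Homo 5 exceeded both. The log2 fold change was -0.38 (95% interval from -1.01 to 0.26, limma adjusted p = 0.916; exact permutation p = 0.261). The difference was -0.97 in the sparser set and 0.26 in the fuller one, with an unadjusted limma p of 0.0514 for the contrast between them (adjusted p = 0.876). Of its relatives, *Nkx2-2* had a mean of 5.66 FPKM and *Nkx2-4* of 3.25 FPKM, with fold changes of 0.36 and -0.66 (limma adjusted p = 0.939 and 0.915).

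*Bsx* (ENSMUSG00000054360), a homeobox gene that controls *Agrp* and *Npy* in hunger neurons, was high in a single library of each genotype. Its span is chromosome 9, bases 40874127 to 40880057, plus strand. WT 1 to WT 5 gave 25.2, 52.4, 17.3, 21.2 and 17.9 FPKM, and Homo 1 to Homo 7 gave 14.3, 15.9, 19.1, 44.0, 17.3, 14.8 and 20.7 FPKM. Apart from WT 2 and Homo 4, all libraries lay between 14.3 and 25.2 FPKM, and 6 of the 7 Homo libraries were below the WT median. The log2 fold change was -0.32 (95% interval from -0.99 to 0.34, limma adjusted p = 0.923; exact permutation p = 0.383), and it moved to -0.06 without WT 2 and to -0.51 without Homo 4. Within the library sets it was -0.82 and -0.09. The paper reports the opposite direction by another method, in situ hybridization, where the hypothalamic *Bsx* signal was higher in the mutants than in WT. The cause of this difference was not tested. *Agrp* stood at 347 FPKM in WT 2, its lowest value in the sparser set, and at 597 FPKM, its highest value, in Homo 4. Its lowest value over all libraries, 181 FPKM, was that of WT 3 in the fuller set.

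*Isl1* (ENSMUSG00000042258), a LIM homeobox gene required for *Pomc* expression, had a larger difference between the library sets than between genotypes, and neither passed the adjusted test. On chromosome 13 it occupies bases 116298281 to 116309689, minus strand. In WT 1 to WT 5 its level was 40.5, 54.8, 30.0, 24.0 and 29.6 FPKM, and in Homo 1 to Homo 7 it was 51.1, 70.9, 39.9, 57.2, 25.9, 26.4 and 25.7 FPKM. The 5 libraries of the fuller set all lay between 24.0 and 30.0 FPKM, and of the sparser 7 only Homo 5 was below 39.9 FPKM. Between genotypes the log2 fold change was 0.19 (95% interval from -0.43 to 0.82, limma adjusted p = 0.953; exact permutation p = 0.558). It was -0.05 once the set was a term. Fuller minus sparser, the log2 difference was -0.78, with a limma adjusted p of 0.352 and an unadjusted p of 0.00547, where 8.42% of all genes had an unadjusted and 0.178% an adjusted p under 0.05. Its paralog *Isl2*, a motor neuron factor, was above 0 in 2 libraries only.

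*Otp* (ENSMUSG00000021685), a homeobox gene of neuroendocrine neurons in the ARC and the paraventricular nucleus, covered nearly the same range in both genotypes. *Otp* is also on chromosome 13, at bases 94875602 to 94885130, plus strand. WT libraries ranged from 7.40 to 20.8 FPKM with a median of 15.7, and Homo libraries from 7.60 to 22.1 with a median of 18.9 FPKM. Each genotype held 1 library below 8 FPKM, WT 4 and Homo 5. The log2 fold change was 0.05 (95% interval from -0.58 to 0.67, limma adjusted p = 0.993; exact permutation p = 0.878). The 7 markers of the paraventricular nucleus and lateral hypothalamus, 4 of them with a mean of at least 1 FPKM, summed to between 9.89 and 1030.5 FPKM in WT and between 15.9 and 579 FPKM in Homo. Of these, *Sim1* was at 0 in 6 libraries and *Crh* in 10. In WT 5, which had the highest sum, *Avp* gave 380 FPKM and *Oxt* 646 FPKM. The lowest sum was that of WT 4, whereas Homo 5 stood at the Homo median of 347 FPKM. Homo 3 had the lowest Homo sum, with *Otp* at 18.9 FPKM. The part of these markers in *Otp* was not tested.

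*Foxo1* (ENSMUSG00000044167), the forkhead factor that insulin signalling removes from the nucleus, was the steadiest of the abundant factors, with a coefficient of variation of 20.04% over the 12 libraries. Bases 52268336 to 52353221 of chromosome 3, plus strand, hold the gene. WT libraries lay between 8.40 and 10.4 FPKM with a median of 9.55, and Homo libraries between 6.18 and 12.7 with a median of 10.2 FPKM. The WT values fell wholly inside the Homo range. A log2 fold change of 0.03 had a 95% interval from -0.41 to 0.47 (limma adjusted p = 0.993; exact permutation p = 0.867). The antisense gene *Gm20402* shares 674 of its 687 exon bases with *Foxo1* but was itself at a mean of 0.938 FPKM. Of the other forkhead genes of this family, *Foxo3* had a mean of 10.4 FPKM, close to *Foxo1*, and *Foxo4* and *Foxo6* had means of 1.23 and 2.01 FPKM. Their fold changes were 0.29, 0.55 and -0.04, all with a limma adjusted p of at least 0.915.

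The start regions of the 4 factors for which RefSeq and GENCODE place the first base within 1 base of each other are shown, since *Bsx*, *Isl1*, *Nkx2-1* and *Foxo1* all act on peptide genes of AGRP or POMC neurons. Each is the 250 bases before the RefSeq start in GRCm38.p6, read 5′ to 3′ on the strand of the gene. Capitals mark CCAAT or its reverse complement ATTGG, the element bound by NF-Y. *Bsx* is chr9:40873877-40874126 on the plus strand, *Isl1* chr13:116309689-116309938 on the minus strand, *Nkx2-1* chr12:56536909-56537158 on the minus strand and *Foxo1* chr3:52268087-52268336 on the plus strand.
Bsx: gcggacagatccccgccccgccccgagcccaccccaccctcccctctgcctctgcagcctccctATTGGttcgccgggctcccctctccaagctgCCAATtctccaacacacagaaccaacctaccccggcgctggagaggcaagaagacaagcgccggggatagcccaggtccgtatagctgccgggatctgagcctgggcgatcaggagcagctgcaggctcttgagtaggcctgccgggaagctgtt
Isl1: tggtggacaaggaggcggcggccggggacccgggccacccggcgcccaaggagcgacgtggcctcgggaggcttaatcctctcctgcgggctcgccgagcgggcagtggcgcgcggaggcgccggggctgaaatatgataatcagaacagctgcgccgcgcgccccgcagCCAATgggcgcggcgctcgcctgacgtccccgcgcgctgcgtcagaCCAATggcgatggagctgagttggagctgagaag
Nkx2-1: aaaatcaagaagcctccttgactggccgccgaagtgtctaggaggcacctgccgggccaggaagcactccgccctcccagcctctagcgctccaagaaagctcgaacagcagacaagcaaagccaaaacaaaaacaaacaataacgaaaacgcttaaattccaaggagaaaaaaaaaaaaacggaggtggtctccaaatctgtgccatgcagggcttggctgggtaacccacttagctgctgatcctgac
Foxo1: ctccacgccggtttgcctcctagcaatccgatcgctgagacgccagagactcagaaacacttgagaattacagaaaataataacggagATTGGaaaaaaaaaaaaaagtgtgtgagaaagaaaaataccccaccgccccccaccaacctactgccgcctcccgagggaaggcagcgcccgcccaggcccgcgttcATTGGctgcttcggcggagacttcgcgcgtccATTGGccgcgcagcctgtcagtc
*Foxo1* held 3 CCAAT elements, *Bsx* and *Isl1* 2 each and *Nkx2-1* none. In the table of start regions 8 of the 10 factors were found, and 6 of these 8 held CCAAT on either strand, against 33.8% of 32851 windows of the same length. The window of *Dlx1*, which held none of the motifs searched, lies 1332 bases from the GENCODE start, and the bases after it were not found near the start of a GENCODE transcript of the gene. CANNTG, the E-box to which basic helix-loop-helix factors such as the product of *Nhlh2* bind, was in 6 of 8 against 66.2% of windows. TAATTA, a homeodomain core, was in 0 of 8 (4.84% of windows), GTAAACA, the forkhead core, in 0 of 8 (3.17%) and TATAAA in 0 of 8 (12.4%). Both strands were searched, TAATTA and CANNTG read the same on each, and no motif contains another.

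*Dlx1* (ENSMUSG00000041911), a homeobox gene that in the ARC promotes growth hormone-releasing hormone neurons and holds back *Otp*, had the highest fitted value in Homo relative to WT. The gene is on chromosome 2, bases 71528113 to 71533981, plus strand. WT 1 to WT 5 gave 4.98, 9.86, 5.23, 5.52 and 16.3 FPKM. Homo 1 to Homo 7 gave 18.2, 6.90, 8.16, 13.9, 17.1, 12.8 and 10.5 FPKM. All 7 Homo libraries lay above the WT median of 5.52 FPKM, but WT 5 was above 5 of them. The WT mean was 8.37 ± 4.85 FPKM (SD, n = 5) and the Homo mean 12.5 ± 4.28 FPKM (SD, n = 7), a log2 fold change of 0.59 (95% interval from -0.07 to 1.26, limma adjusted p = 0.903; exact permutation p = 0.101). The difference had the same sign in both library sets, 0.69 and 0.51. *Ghrh*, with a WT mean of 310 ± 175 FPKM and a Homo mean of 370 ± 118 FPKM, had a fold change of 0.44 (limma adjusted p = 0.920), and its sign turned between the sets, from -0.42 in the sparser to 1.15 in the fuller one.

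The other *Dlx* genes had fitted values below 0, none past the test. *Dlx2*, the neighbour of *Dlx1*, had means of 7.41 and 6.40 FPKM in WT and Homo and a log2 fold change of -0.14 (limma adjusted p = 0.985). *Dlx5* had means of 9.94 and 6.10 FPKM and a log2 fold change of -0.60 (limma adjusted p = 0.899; exact permutation p = 0.0884, and 0.0048 within the library sets, the smallest that 210 rearrangements can give, unadjusted). *Dlx6* had a fold change of -0.27 (limma adjusted p = 0.968), which was 0.12 with the library set as a term. The gene antisense to *Dlx1*, *Dlx1as*, was singled out after its values were seen. WT 1 to WT 5 gave 27.3, 16.5, 9.78, 10.1 and 13.3 FPKM and Homo 1 to Homo 7 gave 6.28, 7.81, 3.40, 7.63, 7.52, 5.87 and 9.22 FPKM. Every WT library was above every Homo library, a pattern shown by 0.0927% of the genes tested. The log2 fold change of *Dlx1as* was -1.01, with an adjusted limma p of 0.666. *Dlx1as* shares 335 of its 1630 exon bases with *Dlx1*, and because the counting of strands is not stated, reads from these bases cannot be divided between the genes.

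**Figure D2:**
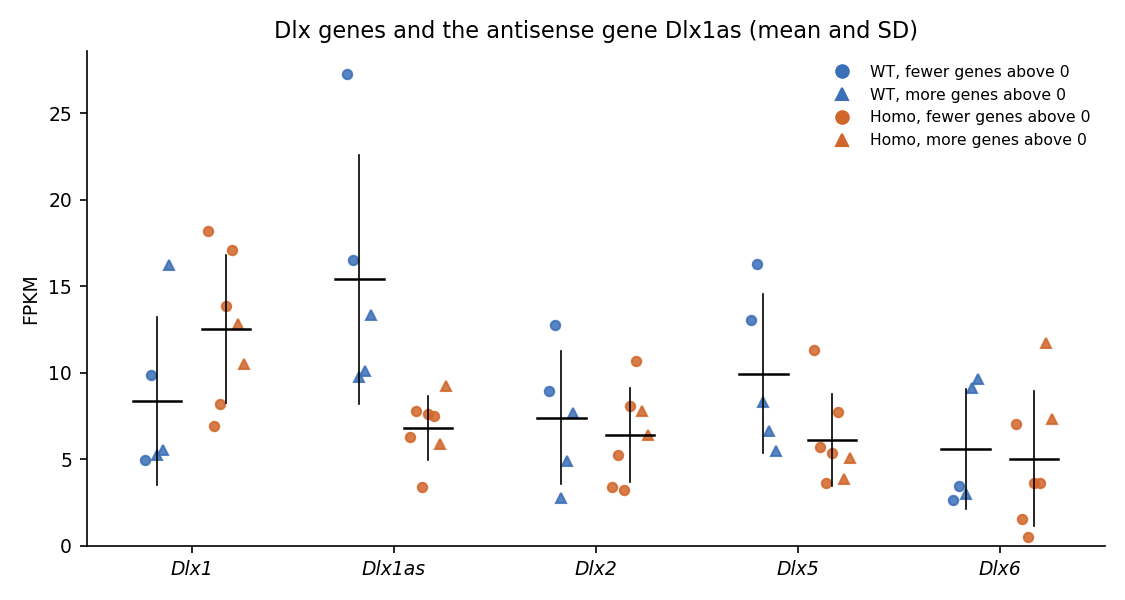
FPKM of *Dlx1*, its antisense gene *Dlx1as* and the related *Dlx2*, *Dlx5* and *Dlx6*, 1 point per library (5 WT in blue, 7 Homo in orange; circles for the sparser set, triangles for the fuller set), with the mean and SD of each genotype. For *Dlx1as* all WT points, 9.78 FPKM and above, lie over all Homo points, whereas for *Dlx1* and the others the genotypes overlap.

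*Nhlh2* (ENSMUSG00000048540), a basic helix-loop-helix gene of melanocortin neurons, was low but present in every library. Like *Foxo1* it is on chromosome 3, at bases 102010076 to 102015492, plus strand. WT libraries ranged from 0.974 to 2.37 FPKM with a median of 1.90, and Homo libraries from 1.19 to 2.70 with a median of 2.00 FPKM. The genotypes covered almost the same range, with a log2 fold change of 0.10 (95% interval from -0.40 to 0.59, limma adjusted p = 0.982; exact permutation p = 0.543). *Nhlh1*, its closest relative, was listed at 0 in all 12 libraries. *Pcsk1*, which *Nhlh2* activates, had a WT mean of 14.8 ± 3.55 FPKM and a Homo mean of 14.3 ± 2.82 FPKM (limma adjusted p = 0.990).

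Both factors that define the ventromedial nucleus were below the level of 1 FPKM and were not fitted. *Nr5a1* (ENSMUSG00000026751), an orphan nuclear receptor on chromosome 2 from 38692656 to 38714542, was listed at 0 in 4 WT and 3 Homo libraries. The rest gave 0.0996 FPKM in WT 3, 0.128 in Homo 1, 0.277 in Homo 4, 0.315 in Homo 6 and 0.0321 FPKM in Homo 7 (exact permutation p = 0.222). *Fezf1* (ENSMUSG00000029697), a zinc finger gene on chromosome 6 from 23245044 to 23248362, was listed at 0 in 2 WT and 3 Homo libraries and reached 0.459 FPKM in WT 3 and 0.647 FPKM in Homo 7 (exact permutation p = 0.905). No fold is given for either gene. The estimated worth of 1 fragment on 1 kb of transcript was between 0.0841 and 0.327 FPKM, an uncertain estimate by which *Fezf1* had between 0 and 17.1 fragments per library. Beside *Nr5a1*, its relative *Nr5a2* had a mean of 4.48 FPKM and was above 0 in every library. Of 5 further marker genes of the ventromedial nucleus, 4 had a mean of at least 1 FPKM, and *Vgll2* was at 0 in 9 libraries. Their sum lay between 13.1 and 26.0 FPKM in WT and between 10.2 and 25.5 FPKM in Homo, most of it from *Slc17a6* (mean 12.1 FPKM), a glutamate transporter gene that is not confined to this nucleus. *Nr5a1* and *Fezf1*, by which the ventromedial nucleus is recognised, were thus almost without signal in these ARC samples.

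**Figure D3:**
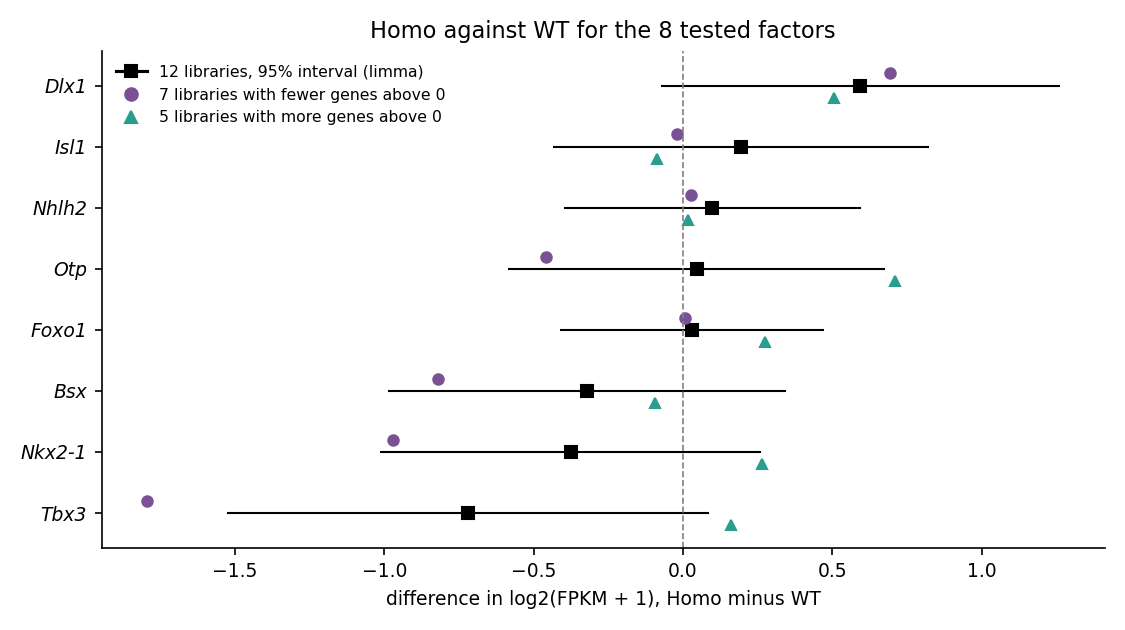
Difference in log2(FPKM + 1), Homo minus WT, for the 8 factors tested, with the fitted value and its 95% interval over 12 libraries (squares, limma), and the difference of means within the 7 libraries of the sparser set (circles, fewer genes above 0) and the 5 of the fuller set (triangles). All intervals include 0, and *Tbx3*, *Nkx2-1* and *Otp* have circles below 0 and triangles above 0, from -1.79 to 0.16 for *Tbx3*.

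The within-set values of the 8 factors were negative for 5 in the sparser set and for 2 in the fuller one. Over all genes tested the corresponding numbers were 8006 and 4724 of 14017, with medians of -0.08 and 0.13, so the zero line itself was shifted within the sets. *Isl1* and *Bsx* were negative in both sets, and *Dlx1*, *Foxo1* and *Nhlh2* were positive in both, with *Nhlh2* at 0.03 and 0.02.

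Target genes of these factors were compared with their regulators in the 7 libraries of the sparser set, the only one with more than 5. The targets were peptide genes and also *Pcsk1*, *Cpe* and *Mc4r*, the last at a mean of 0.343 FPKM. Of 14 factor and target pairs, 0 passed after Benjamini-Hochberg adjustment. *Pomc* had its highest correlation with *Nkx2-1* (Pearson r = 0.895, exact permutation p = 0.0188, adjusted p = 0.149; Spearman rho = 0.821, exact permutation p = 0.0341, adjusted p = 0.239) and r was 0.896 without the 2 libraries farthest from the median of *Nkx2-1*. For *Tbx3* and *Pomc* r was 0.850 (exact permutation p = 0.0212, adjusted p = 0.149) and rho 0.857 (exact permutation p = 0.0238, adjusted p = 0.239), and r was 0.783 without the 2 farthest libraries. WT 1 and WT 2 were among the 3 highest for *Nkx2-1*, *Tbx3* and *Pomc* alike. For *Bsx* r was below 0 with both *Agrp* (r = -0.311, exact permutation p = 0.513, adjusted p = 0.980) and *Npy* (r = -0.235, exact permutation p = 0.628, adjusted p = 0.980), and *Isl1* with *Pomc* gave r = -0.348 (exact permutation p = 0.457, adjusted p = 0.980).

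**Figure D4:**
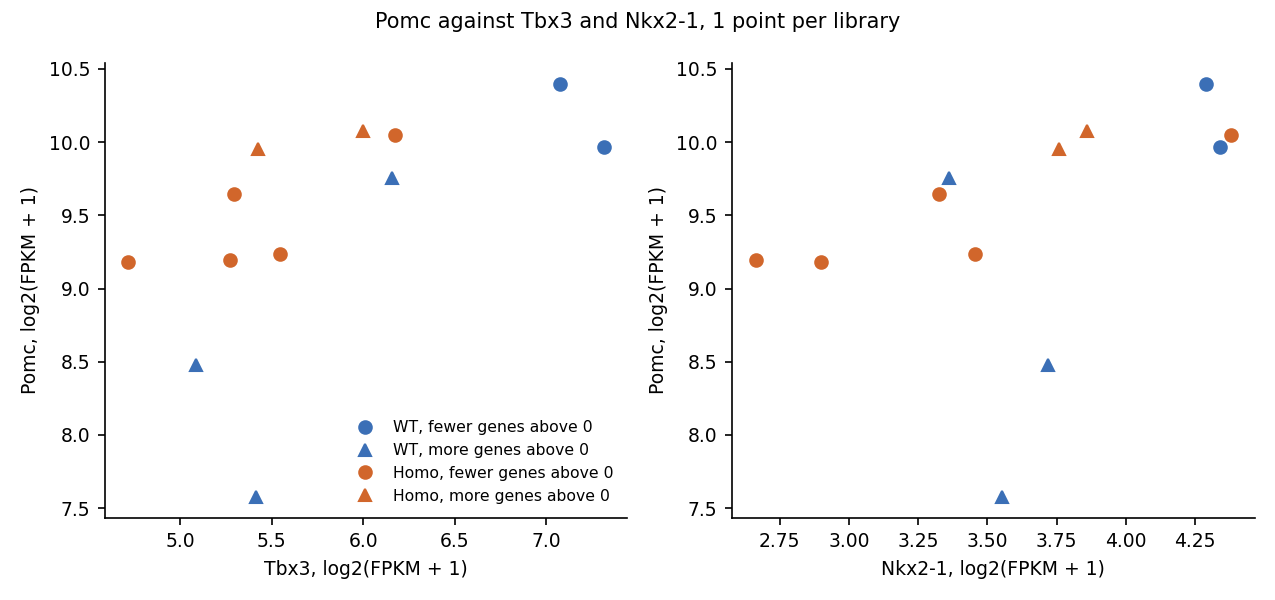
*Pomc* against *Tbx3* (left) and *Nkx2-1* (right), all as log2(FPKM + 1), 1 point per library (5 WT in blue, 7 Homo in orange; circles for the sparser set, triangles for the fuller set). Among the circles *Pomc* is higher where *Tbx3* or *Nkx2-1* is higher (r = 0.850 and 0.895), and the WT triangles of WT 3 and WT 4 lie lowest for *Pomc*.

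Of 11 target genes, 9 were tested, 6 were higher and 3 lower in Homo, with a median log2 fold change of 0.40, and 0 had an adjusted limma p under 0.05. *Agrp* and *Npy* were higher at an unadjusted p under 0.05, as were 3.05% of all genes. The Homo mean was 1.45 times the WT mean for *Npy* and 1.48 times for *Agrp*. On the log2 scale *Npy* had a fold change of 0.60 (limma adjusted p = 0.887) and *Agrp* also 0.60 (limma adjusted p = 0.899). With the library set as a term they were 0.41 and 0.30, with unadjusted limma p-values of 0.0655 and 0.0780 (adjusted p = 0.978 for both), and neither passed. The paper reports a significant increase of both genes in the mutants by ARC RNA sequencing, and of *Agrp* also by in situ hybridization. The direction was the same here, but neither gene passed the adjusted test. The cause of this difference in outcome was not tested. *Agrp* was lower in the fuller set by -0.94 in log2 (limma adjusted p = 0.0293, a threshold passed by 0.178% of all genes). The cannabinoid receptor gene *Cnr1* had a fold change of -0.64 (limma adjusted p = 0.899) and was highest in WT 2 at 15.7 FPKM, beside a range from 2.19 to 4.63 FPKM in the other libraries. *Pomc*, *Cartpt*, *Sst*, *Cpe* and *Pcsk1* had fold changes of 0.38, 0.60, -0.22, 0.40 and -0.04, with a limma adjusted p of at least 0.906. *Pomc* was at -0.72 in the sparser and 1.41 in the fuller set, and *Cartpt* at -0.29 and 1.496. The contrast between the sets had a limma adjusted p of 0.876 for both, and both had an unadjusted p under 0.05, as did 5.18% of all genes. *Pcsk1* also turned, from 0.02 to -0.36. *Mc4r* and *Bdnf* had means of 0.343 and 0.542 FPKM and were not tested.

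Among 59 further hypothalamic regulators, made up of relatives of the 10 factors and of developmental regulators of this and neighbouring regions, 33 were tested and 0 had an adjusted or an unadjusted limma p under 0.05. Of these 12 were higher and 21 lower in Homo, with a median log2 fold change of -0.05. Over all genes tested 5.55% had an unadjusted limma p under 0.05, and 6912 were higher and 7105 lower, with a median of -0.01. The regulators of the tuberal region, to which the ARC belongs, were mostly present, with 20 of 26 tested. The highest were *Six3*, a homeobox gene of the anterior forebrain, at 40.3 FPKM, *Stat3*, which carries the leptin signal, at 34.1 FPKM and *Tcf7l2*, a mediator of Wnt signalling, at 19.8 FPKM. In Homo relative to WT the smallest p-values went to *Six6* (0.51), *Six3* (0.28) and *Hmx2* (0.39) among higher genes and to *Gsx1* (-0.93), *Tcf7l2* (-0.49) and the oestrogen receptor gene *Esr1* (-0.36) among lower ones, all as log2 fold changes with a limma adjusted p of at least 0.899. Of these, 4 turned in sign between the sparser and the fuller set: *Six3* (-0.27 and 0.95), *Hmx2* (-0.25 and 0.92), *Gsx1* (-2.03 and 0.40) and *Esr1* (-0.79 and 0.37). *Six6* was above 0 and *Tcf7l2* below 0 in both. *Gsx1*, a homeobox gene of growth hormone-releasing hormone neurons, had its highest values, up to 12.1 FPKM, in WT 1 and WT 2, the libraries that were highest for *Tbx3*. Regulators of neighbouring regions were mostly below 1 FPKM, with 16 of 20 not tested. *Arnt2*, *Zfhx3* and *Rorb* were the highest, at 14.4, 8.21 and 6.01 FPKM, and *Lhx1* had the largest fold change of the 4 tested, -0.23. *Lhx8* and *Gbx2*, which belong to the basal forebrain and the thalamus and were picked out after their values were seen, were listed at 0 in all 12 libraries. So was *Neurog3* of the tuberal list, also picked out after its values were seen.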

How the data were processed

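RNA of laser-captured ARC was amplified across the whole transcriptome and sequenced, and the authors deposited 1 table of FPKM for 12 libraries. The submitters' processing notes name TopHat2 2.0.8, Cufflinks 2.2.1 and the build GRCm38, and the strandedness of the counting is not given in the sources used here. The FPKM values of the deposited table were not scaled further. Its 12 columns were matched to samples by title, with the columns of Homo 4 and Homo 5, spelled with an extra letter, matched by their genotype and replicate.

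Because FPKM cannot enter a count model, log2(FPKM + 1) was fitted with limma 3.58.1 in R 4.3.3 (trend and robust empirical Bayes, genotype as the only term) over the 14017 genes with a mean of at least 1 FPKM, with Benjamini-Hochberg adjustment at 0.05. The main text of the study names general parametric and rank tests for all its data and none for this table in particular, and further supplementary procedures were not used here. Single values were compared by two-sided exact permutation of genotype in all 792 ways, for which the smallest p is 0.0013, and over 210 rearrangements within library sets, for which it is 0.0048. The labels number the libraries, each was taken as 1 mouse, and p-values otherwise measure only the spread between these libraries. Genes named besides the 10 factors are their relatives, a list of target genes, the 3 highest regulators of each regional list and up to 3 with the smallest p in each direction, for likeness, the 3 genes with the highest correlation, and markers of cell types and regions. Genes picked out after their values were seen are named as such. The members and lists were chosen with earlier results of these data known. The scripts were tested on simulated data.

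The table gives no read counts. Totals ranged from 1.33e+07 to 2.12e+07 FPKM per library. The worth of 1 fragment was estimated from steps between low values, of which between 20.9% and 64.6% lay within 10% of a whole step, where even spacing would give 20%, so the depth is uncertain. Spearman correlations between libraries, across genes, ranged from 0.871 to 0.906, so no pair was identical. Positions are from GENCODE on GRCm38 and start regions from RefSeq on GRCm38.p6. Alternatives covered the pseudocount, the low-value filter, quantile and upper-quartile scaling, the library sets, each library left out and a replicate block.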

Additional observations from a re-analysis of the deposited data

Results flagged for a closer look

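Within genotypes, 20 groups of values (10 factors in WT and in Homo) were examined for a library far from the others, and 3 stood out. Chance marks about 1 group in 20 where values are normally distributed, which FPKM need not be, so the rate is only a rough guide. *Bsx* in WT 2, at 52.4 FPKM, was far above the other 4 WT libraries. *Bsx* in Homo 4, at 44.0 FPKM, was far above the other 6 Homo libraries. *Nr5a1* in WT 3, at 0.0996 FPKM, was the only WT value above 0, so its gap to the 4 zeros fills the whole range whatever its size, and the rate of 1 in 20 does not apply to it.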

How the results depend on the processing

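Of 176 fold changes of the 8 factors over 22 alternatives, 154 kept their direction, 22 turned and 0 passed the adjusted threshold, with a lowest limma adjusted p of 0.418. *Dlx1* turned in none, *Otp* in 8 and *Foxo1* in 7. The log2 fold change of *Isl1* was -0.052 with the library set as a covariate, -0.021 in the sparser set of 7 and -0.088 in the fuller set of 5. That of *Otp* was -0.46 in the 7 and -0.13 without Homo 6 and Homo 7, that of *Foxo1* -0.095 without these. In the 5 libraries *Tbx3* was at 0.16 and *Nkx2-1* at 0.26, and without WT 1 and WT 2 *Bsx* was at 0.047 and *Foxo1* at -0.038. Unadjusted p-values under 0.05 were reached by 2 factors after quantile normalization (*Tbx3*, *Dlx1*), 1 after upper-quartile scaling (*Dlx1*), 1 with the set as a covariate and 1 in the 7 libraries (both *Tbx3*). Of all genes 5.55% had such a limma p in the main fit, 4.78% with the set as a covariate and 5.98% in the 7 libraries. The share was not taken for either scaling, so these counts are not read as results about the factors. The causes were not tested.

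Genes called over the whole table, 1 in all 12 libraries, were 6 in the 7 libraries, 19 in the 5, 4 without Homo 6 and Homo 7 and 4 without WT 1 and WT 2. Other regulators with an unadjusted p under 0.05, 0 of 33 in all 12 libraries, were 1 with no low-value filter, 1 with the set as a covariate, 4 in the 7 libraries, 2 in the 5, 3 without Homo 6 and Homo 7 and 1 without WT 1 and WT 2. Of all genes 5.55% had such a limma p in all 12 libraries, 4.78% with the set as a covariate and 5.98% in the 7. The share was not taken for the other alternatives, those with a library left out among them. With each library left out in turn, genes called ranged from 1 to 3, factors with an unadjusted p under 0.05 from 0 to 1 and other regulators from 0 to 2. Fold changes then ranged from -1 to -0.44 for *Tbx3*, from -0.51 to -0.06 for *Bsx*, from -0.53 to -0.24 for *Nkx2-1*, from 0.05 to 0.36 for *Isl1*, from -0.17 to 0.19 for *Otp*, from -0.030 to 0.12 for *Foxo1*, from -0.021 to 0.17 for *Nhlh2* and from 0.47 to 0.85 for *Dlx1*.

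Numbers are shared by WT and Homo libraries, but deviations of same-numbered pairs correlated at -0.05 to 0.03 and no library correlated best with its own number. The WT libraries fall in both library sets, whereas the Homo libraries that share their numbers are all in the sparser set. Differences between the sets could hide a pairing, so this check cannot decide whether the numbers pair mice. With the replicate block 2 genes were called, 1 other regulator had an unadjusted p under 0.05, *Otp* was at -0.13 and *Foxo1* at -0.095. *Nr5a1* and *Fezf1* were at or near 0, and standard errors of the other 8 factors were 0.21 to 0.38 in log2.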

Other observations

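Genes whose pattern over the 12 libraries was most like each factor, after removal of the library set means, were looked up among 8724 genes with a mean of at least 5 FPKM. For *Tbx3* the closest were *Faim2*, an inhibitor of cell death by Fas (Pearson r = 0.954), *Lrrc47* (r = 0.940) and *Aldh9a1* (r = 0.936). For *Nkx2-1* they were *Eif4g3*, a translation initiation factor gene (r = 0.972), *Marcksl1* (r = 0.933) and *Samd4b* (r = 0.919). *Bsx* was most like *Sorbs2* (r = 0.930), *Cd59b* (r = 0.929) and *Tcf7l2* (r = 0.915), *Isl1* most like *Mras* (r = 0.881), *Spag9* (r = 0.865) and *Gpank1* (r = 0.863), and *Dlx1* most like *Bmpr2* (r = 0.929), *Tsn* (r = 0.927) and *Glrx2* (r = 0.926). The first for *Foxo1*, *Nhlh2* and *Otp* were *Cnpy3* (r = 0.907), *Samd8* (r = 0.919) and AC117657.1 (r = 0.885). None of the peptide genes of the ARC was among the 3 genes closest to any factor. With 3 places per factor among 8724 genes, this does not show how closely peptide genes followed the factors. These are the highest of many correlations over 12 points that share library depth, and are given as a description.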
